A study of Arabidopsis thaliana with 4 samples.

Results

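RNA recovered with GFP-tagged MTA from leaf nuclei of Arabidopsis thaliana was compared with the nuclear RNA from which it was captured. The capture (immunoprecipitate, IP) and its input are 1 library each, from MTA-GFP plants. Reads were summed per nuclear locus, and 13914 of the 32548 nuclear loci in the files had at least 40 reads over this pair and were compared. In all, 23477 nuclear loci had a read in the pair. The minimum fell in a dense range: 96 and 128 loci had 38 and 39 reads, and 113 and 115 loci had 40 and 41 reads.

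MTA is an enzyme that adds N6-methyladenosine (m6A) to RNA in plant nuclei. MTB is its partner in the catalytic pair, and FIP37, VIRILIZER and other proteins hold the pair in a larger complex. ECT proteins read the mark through a YTH domain, and in plants m6A has been studied on messenger RNA and on the primary transcripts of microRNAs.

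The MTA-GFP IP came from Col-0 plants labelled MTA-GFP, and the MTA-GFP input from the same genotype. A control IP and a control input came from Col-0 plants that the titles name GFP and the genotype field names CFP, called control here. All 4 libraries share the rest of the design: plants of 4 weeks grown in soil with 16 h light and 8 h dark at 22 °C, tissue crosslinked in 0.1% formaldehyde, a nuclear fraction, and capture with magnetic GFP-Trap beads, which bind GFP. The tissue is given as leaf and also as aerial tissue. The sources used here do not give the promoter that drives MTA-GFP, the number of plants pooled, or whether a native MTA gene is kept. The title of the series names primary microRNA transcripts as the question behind the capture.

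The MTA-GFP IP held 36098699 assigned reads and the MTA-GFP input 43950307. Nuclear loci took 48.8% and 44.8% of them, and most of those reads lay on ribosomal RNA. Protein-coding loci away from ribosomal DNA and from a mitochondrial DNA copy held 3042961 reads in the MTA-GFP IP (8.43%) and 996775 in the MTA-GFP input (2.27%). Chloroplast transcripts took 5.88% in the MTA-GFP IP and 19.6% in the MTA-GFP input. The 6 flower markers had between 0 and 6 reads over the pair, and all 39 genes listed for light harvesting and the photosystems passed the minimum.

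Each ratio below is the MTA-GFP IP over the MTA-GFP input after TMM scaling, which took 3.56 IP reads for each input read as no change. A log2 ratio of 0 therefore means that a transcript was captured like the typical nuclear transcript, not that it was left uncaptured. Scaled on all assigned reads instead, the median of all loci stood at 2.11 and every ratio of the MTA-GFP pair moved up by the same step. Ratios of the control pair were scaled within that pair, which took 0.50 control IP reads for each control input read as no change. With 1 library a side there is no replicate check and no p-value: the intervals are exact 95% intervals of the counts, they treat reads as independent although PCR copies are not, and they compare these libraries and not the conditions. A locus is called higher or lower where its ratio was at least 2-fold and its interval left out no change.

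The transcript of MTA itself (AT4G10760) was abundant in both MTA-GFP libraries. It had 12860 reads in the MTA-GFP IP and 2291 in the MTA-GFP input, against 31 reads in the control IP and 64 in the control input. Both MTA-GFP libraries thus stood far above both control libraries, which is the order the labels give. Reads from the tagged transgene and from a native gene cannot be told apart here. Its log2 ratio was 0.66 (interval 0.59 to 0.72) in the MTA-GFP pair and -0.04 in the control pair, under 2-fold in each.

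Across the 13914 loci, 1075 were higher in the MTA-GFP IP (7.73%), 1050 were lower (7.55%) and 11789 were neither. The median log2 ratio was -0.01, the range from the 5th to the 95th percentile was -1.16 to 1.25, and 84.0% of loci lay within 2-fold. At 4-fold, 193 loci were higher and 116 lower.

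The higher and lower calls differed in depth. Higher loci had a median of 8 input reads, and 174 of the 1075 had 3 or fewer, while lower loci had a median of 61 input reads. The IP gave more reads per locus, with a median of 110 in the MTA-GFP IP and 31 in the MTA-GFP input, so a minimum on the plain sum admitted loci mainly through the IP. Where the minimum of 40 was put on the sum of scaled reads instead, a choice made after seeing the data, 9492 loci remained, of which 388 were higher (4.09%) and 831 lower (8.75%). The balance of higher and lower calls therefore depends on that minimum.

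**Figure D1:**
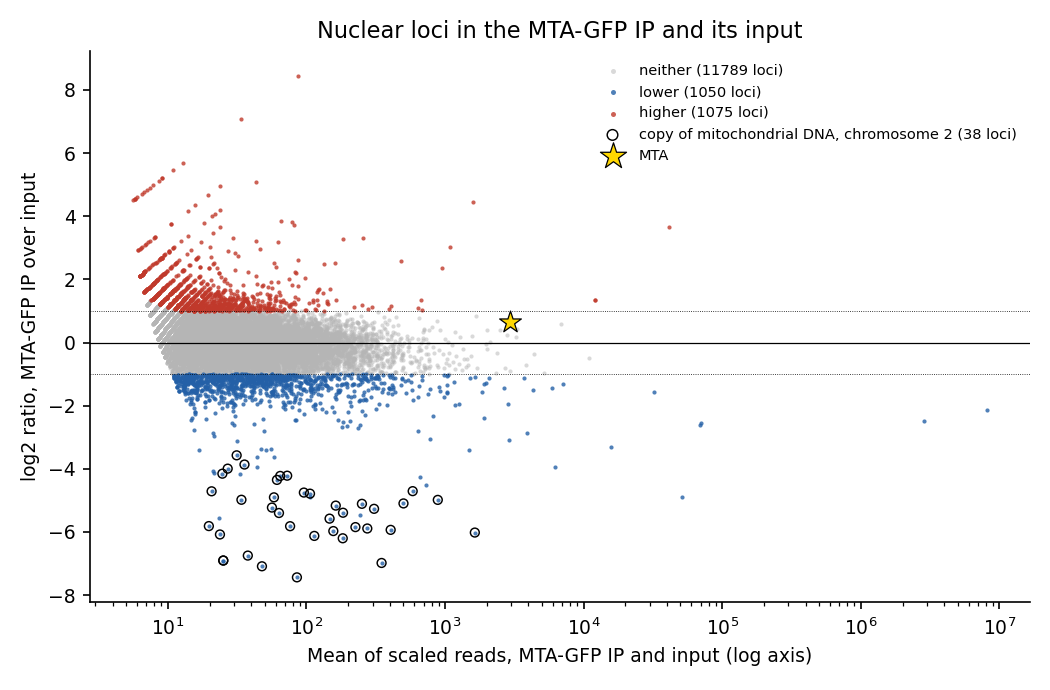
Log2 ratio of the MTA-GFP IP over its input (vertical axis) against the mean of the scaled reads of both libraries (horizontal log axis), 1 point per nuclear locus. The 1075 higher loci crowd at low levels, the 38 loci of a mitochondrial DNA copy (circles) lie between -7.44 and -3.57, and MTA (star) lies at 0.66; dotted lines mark 2-fold.

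MicroRNA genes were measured thinly. Their primary transcripts are made by RNA polymerase II and cut in the nucleus by DCL1. Of 13 MIR loci with at least 40 reads that lie away from ribosomal DNA, 4 were higher (30.8%) and 3 lower (23.1%). The other 6 were neither, and the median log2 ratio of the 13 was 0.86. Over all loci, 7.73% were higher and 7.55% lower. With the minimum on scaled reads, 2 of the 13 MIR loci were left, 1 higher and 1 lower. Over the 53 MIR loci with a transcript model, of which 40 had reads, the MTA-GFP IP held 679 reads and the MTA-GFP input 130, a log2 ratio of 0.55 (0.28 to 0.84). The control pair, with 150 IP reads and 198 input reads at the same loci, gave 0.60 (0.28 to 0.91), and the intervals of both pairs overlap. Each ratio is relative to the typical transcript of its own pair. A gain over the control that most transcripts share is therefore not seen in these ratios.

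MIR159a (AT1G73687), whose microRNA targets MYB33 and MYB65, had 60 reads in the MTA-GFP IP and 3 in the MTA-GFP input, a log2 ratio of 2.28 (0.87 to 4.81). Its control pair, with 15 and 11 reads, gave 1.43 (0.22 to 2.71) and was too thin to be called. MIR472 (AT1G12294), which acts on disease resistance genes, had 38 reads in the MTA-GFP IP and 3 in the MTA-GFP input, at 1.63 (0.18 to 4.17). MIR414 had 44 and 4 reads in the MTA-GFP IP and input, at 1.47 (0.17 to 3.57). All 3 rest on 4 input reads or fewer, and their intervals are correspondingly wide.

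MIR4228 (AT1G09687) was the deepest of the set, with 5691 reads in the MTA-GFP IP and 308 in the MTA-GFP input and a log2 ratio of 2.37 (2.21 to 2.55). It was higher in the control pair too, at 3.84 (3.65 to 4.04), and it supplied most of the 6106 IP reads of the MIR loci without a transcript model. In the other direction, MIR850 had 14 reads in the MTA-GFP IP and 27 in the MTA-GFP input (-2.75, interval -3.82 to -1.80). MIR775 had 41 and 37 reads (-1.69, -2.36 to -1.0) and MIR167d, whose microRNA targets ARF6 and ARF8, 39 and 24 reads (-1.14, -1.90 to -0.33).

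The 6 MIR loci that were neither higher nor lower were MIR170 at 1.12, MIR163 at 0.92, MIR779 at 0.86, MIR162a at 0.18, MIR157c at -0.09 and MIR159b at -0.17. MIR5642a, which lies within 10 kb of ribosomal DNA and is kept apart, had 119 reads in the MTA-GFP IP and 39 in the MTA-GFP input, at -0.23. The signs of MIR162a and MIR159b turned in the deposited TPM values, at -2.24 and 1.88, so no direction is given for either.

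Small nuclear and nucleolar RNAs spread far wider than messenger RNAs. Small nucleolar RNAs (snoRNAs) guide methylation and pseudouridylation of ribosomal RNA. Their median log2 ratio was 1.34, with 55 of 94 higher (58.5%) and 14 lower (14.9%), against 7.73% and 7.55% of all loci. With the minimum on scaled reads, the median was 0.74, with 31 of 64 higher and 13 lower. In the control pair, 73 of 80 were higher and their median was 4.25. Pooled over all snoRNA loci, the reads were 47584 in the MTA-GFP IP and 15630 in the MTA-GFP input, a log2 ratio of -0.23, opposite in sign to the median. AT2G08770 alone held 11395 and 8636 of these reads and was lower, at -1.43 (-1.47 to -1.39).

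Spliceosomal snRNAs split by kind. The U1, U2 and U5 snRNAs were lower when the copies of each were pooled, at -2.57, -2.71 and -1.14, with 143475, 31278 and 8344 reads in the MTA-GFP IP and 238766, 57350 and 5169 in the MTA-GFP input. U4 and U6, which pair with each other in the tri-snRNP, were higher, at 2.95 and 3.81. U4 had 7460 reads in the MTA-GFP IP and 270 in the MTA-GFP input, and U6 had 13831 and 276. Each kind kept its direction in the control pair, where U1, U2 and U5 stood at -1.78, -1.77 and -1.66 and U4 and U6 at 4.39 and 10.07. Single copies are uncertain, since near-identical copies share reads. U1.2 had 621 reads in the MTA-GFP IP and 0 in the MTA-GFP input, 58.2-fold higher against a floor of 3 reads (log2 interval from 5.56 up). U1.6 and U1.7 were lower at -2.61 and -2.54.

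Among long non-coding RNAs, the median was 0.46, with 38 of 134 higher (28.4%) and 3 lower (2.24%), against 7.73% and 7.55% of all loci. Among other non-coding RNAs it was 0.66, with 16 of 43 higher (37.2%) and 5 lower (11.6%). These types had few input reads, with medians of 14 and 13. With the minimum on scaled reads, 13 of 61 long non-coding RNAs were higher with a median of 0.25, and 4 of 14 other non-coding RNAs with a median of 0.46. Loci at either end were ranked by the end of their interval nearest 0, so a deep locus can stand ahead of one with a larger ratio and few reads. AT1G15405 stood out by depth, with 271014 reads in the MTA-GFP IP and 5977 in the MTA-GFP input and a log2 ratio of 3.67 (3.63 to 3.71). Its control pair gave 7.56. AT4G03905 had 167 reads and 1 read, at 4.97 (3.05 to 10.86). The snoRNA AT4G06305 had 241 and 0, 22.6-fold higher against a floor of 3 reads (log2 interval from 4.19 up). U6.4 at 4.46 and the snoRNA AT2G09690 at 3.82 completed the 6 highest non-coding loci by this ranking. The 6 lowest by it were AT2G05215 at -5.58, AT3G07315 at -4.12 and the U2 copies U2.14, U2.1, U2.10b/12 and U2.11, between -3.96 and -2.88. Of the 6 highest, AT4G03905, AT4G06305, U6.4 and AT2G09690 were higher in the control pair too, at 7.11, 3.87, 7.63 and 7.02. U1.2 had 0 reads there.

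**Figure D2:**
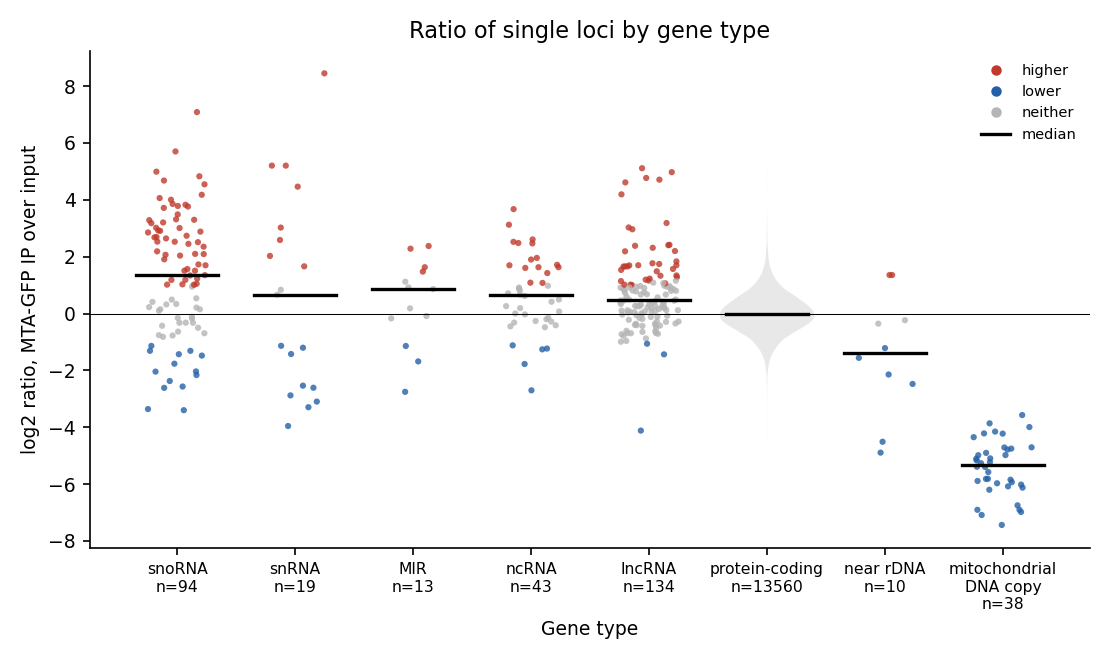
Log2 ratio of the MTA-GFP IP over its input (vertical axis) by gene type, 1 point per locus, with the 13560 protein-coding loci as a grey shape and the median of each type as a black line. The snoRNA median is 1.34 and the protein-coding median -0.01, and the 38 loci of the mitochondrial DNA copy lie between -7.44 and -3.57.

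Many of the lowest-ranked loci lay in 1 stretch of chromosome 2 that carries a copy of mitochondrial DNA. All 38 of its measured loci were lower, from -7.44 to -3.57 with a median of -5.33. Their reads cannot be told apart from those of the mitochondrial genome. Mitochondrial entries held 82658 reads in the MTA-GFP IP and 676925 in the MTA-GFP input, a log2 ratio of -4.87 on the same scale. In the control pair the mitochondrial entries stood at 0.09 and the median of the stretch at -1.90.

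Of the 15 lowest-ranked protein-coding loci, 14 lay in that stretch. AT2G07727 had the most reads, with 177 in the MTA-GFP IP and 3233 in the MTA-GFP input (-6.02, -6.25 to -5.80). Among the other non-coding loci, AT2G05215 lay in it too, at -5.58. The lowest protein-coding loci were therefore ranked a second time without the stretch, a choice made after seeing the data.

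Outside it, AT2G12905 ranked lowest, with 38 reads in the MTA-GFP IP and 473 in the MTA-GFP input (-5.45, -5.99 to -4.99). PIL1 (AT2G46970), a shade-induced bHLH transcription factor, had 24 and 205 reads (-4.90, -5.60 to -4.31). RBCS1B (AT5G38430), a gene of the small subunit of Rubisco, had 909 and 2729 reads (-3.42, -3.53 to -3.31). TGG2 (AT5G25980), a myrosinase that cleaves glucosinolates, had 589 and 1386 reads (-3.07, -3.21 to -2.93). The other 11 were AT5G06043, AT1G31835, AT3G42180, AT2G33850, AT5G18600, AT4G22490, LpxC4, AT1G64360, AT2G10940, BGLU33 and AT1G64370, between -5.56 and -2.68. In the control pair AT2G12905 and RBCS1B were lower too, at -1.82 and -2.60, and PIL1 and TGG2 were neither, at -0.99 and -0.86.

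At the high end, LpxC3 (AT1G25054) ranked first with 299 reads in the MTA-GFP IP and 2 in the MTA-GFP input, at 5.07 (3.53 to 8.45). It is 1 of a set of near-identical genes, and its copy LpxC4 (AT1G25145) was among the lowest with 23 and 81 reads. Pooled over the set, the ratio was -0.20. The values of the single copies are therefore uncertain. ROC2 (AT3G56070), a cyclophilin, had 807 reads in the MTA-GFP IP and 40 in the MTA-GFP input (2.49, 2.05 to 3.0), and its control pair gave 6.39. AT1G03940 had 490 and 29 reads (2.22, 1.71 to 2.84) and 3.41 in the control pair.

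LECRKA4.1 (AT5G01540), a lectin receptor kinase, had 158 reads in the MTA-GFP IP and 3 in the MTA-GFP input (3.67, 2.31 to 6.18), and 0.65 in the control pair. AT4G25980 had 109 reads and 1 read (4.36, 2.43 to 10.25). Several others had no input read. Against a floor of 3 input reads, AT1G18010 with 78 IP reads was 7.31-fold higher (log2 interval from 2.5 up). On the same floor, AT5G25050 with 53 IP reads was 4.96-fold higher (from 2.0 up). AT5G21050 with 40 IP reads was 3.75-fold higher (from 1.5 up). GER2, a germin-like protein, and UREF, a urease accessory protein, had 41 IP reads each. Both were 3.84-fold higher on that floor (log2 interval from 1.58 up). The remaining loci of the 15 ranked highest were AT5G22270, AT3G09020, AT3G49130, RTH and AT5G56380, between 2.71 and 3.74.

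**Figure D3:**
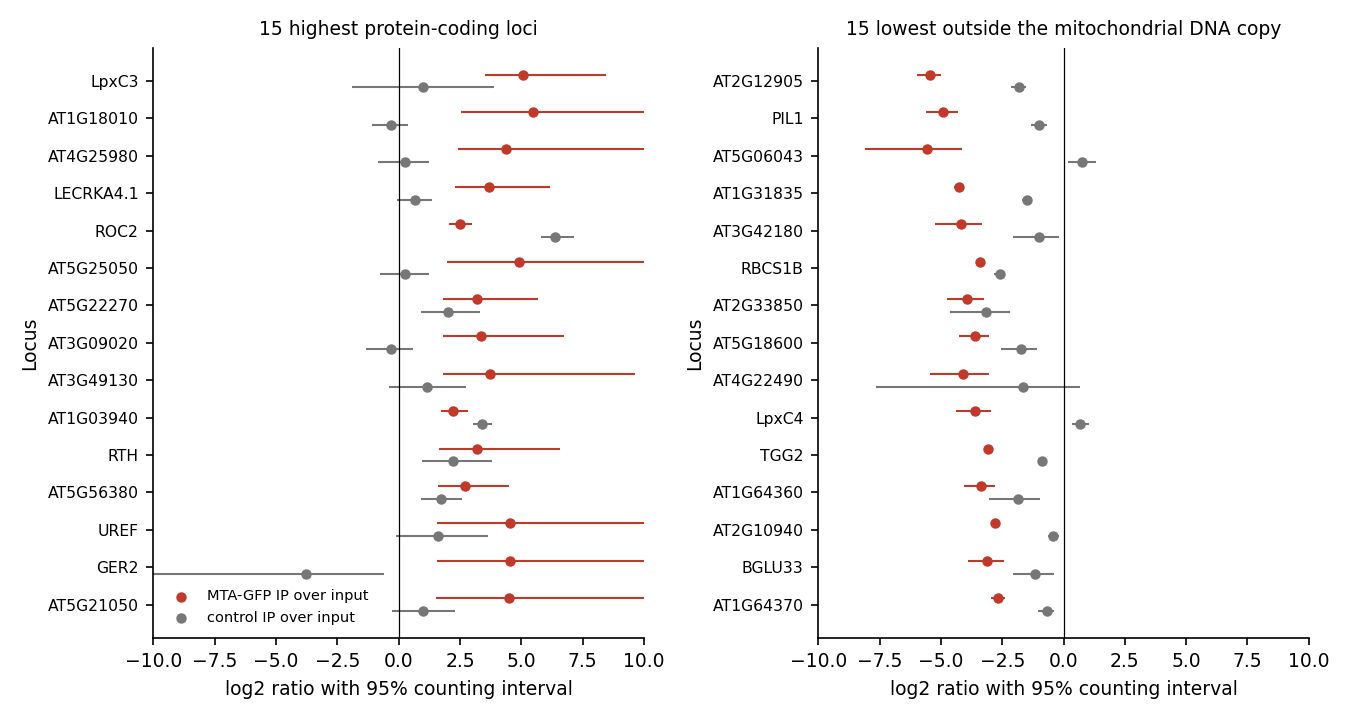
Log2 ratio with its 95% counting interval (horizontal axis) for the 15 highest protein-coding loci and the 15 lowest outside the mitochondrial DNA copy, ranked by the interval end nearest 0, in the MTA-GFP pair (red) and the control pair (grey). Intervals that pass 10 run off the axis, as for AT1G18010 with 0 input reads; ROC2 lies at 2.49 in the MTA-GFP pair and 6.39 in the control pair.

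Transcripts of the m6A machinery itself gave few calls. Of 6 writer genes, 1 was lower and 0 were higher, against 7.43% and 6.99% of all protein-coding loci. FIP37 (AT3G54170) had 73 reads in the MTA-GFP IP and 41 in the MTA-GFP input (-1.01, -1.57 to -0.41), just past 2-fold, and this call was lost in deposited TPM, at -0.99. VIRILIZER (listed as EMB2016, AT3G05680) had 461 and 96 reads (0.43, 0.11 to 0.77) and MTB (listed as EMB1691, AT4G09980) 195 and 62 (-0.19, -0.60 to 0.26).

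Of 12 reader genes, 1 was higher. ECT11 (AT1G09810) had 61 reads in the MTA-GFP IP and 8 in the MTA-GFP input (1.02, 0.03 to 2.37), and this call was lost with 2 reads added to each count, at 0.82, and with the minimum on scaled reads, where 0 of 9 readers were higher. ECT2 (AT3G13460), the reader with the most reads, had 1351 and 335 (0.18, 0.01 to 0.36). The 3 measured loci listed as erasers lay between -0.45 and -0.04 and were neither.

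Of 12 transcripts taken from m6A studies, 8 had enough reads and 1 was higher. SPL9 (AT2G42200), a transcription factor of the juvenile-to-adult transition and a target of miR156, had 74 reads in the MTA-GFP IP and 5 in the MTA-GFP input (1.93, 0.77 to 3.72). Its control pair had 12 and 9 reads, too few to be called. With the minimum on scaled reads, SPL9 was not measured and 0 of 6 were higher. SOC1, a floral integrator, had 222 and 36 reads (0.78, 0.28 to 1.34), and the photoreceptor gene CRY1 had 1160 and 302 (0.11, -0.07 to 0.30).

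Genes of microRNA production gave 1 higher (5.88%) and 3 lower (17.6%) of 17, against 6.99% and 7.43% of all protein-coding loci. DDL (AT3G20550), which assists DCL1, had 78 reads in the MTA-GFP IP and 88 in the MTA-GFP input (-2.0, -2.46 to -1.55). MOS2 (AT1G33520) had 107 and 67 reads (-1.16, -1.61 to -0.69) and CBP20 (AT5G44200), a subunit of the nuclear cap-binding complex, 77 and 46 (-1.09, -1.63 to -0.53). These 3 were lower in the control pair as well, at -2.76, -3.28 and -2.25. CPL1 (AT4G21670), a phosphatase that acts on HYL1, had 212 and 27 reads (1.12, 0.56 to 1.78). DCL1 (AT1G01040), the processing enzyme, had 838 and 359 reads and did not reach 2-fold (-0.61, -0.79 to -0.43).

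Messenger RNAs that microRNAs target included 7 higher (13.7%) and 2 lower (3.92%) of 51 measured, out of 61 listed, with a median of 0.47. Over all protein-coding loci, 6.99% were higher and 7.43% lower. Of the 51, 40 had a ratio above 0, and 24 had an interval above 0 against 7 with an interval below 0. With the minimum on scaled reads, 4 of 43 were higher and the median was 0.43. The control pair had the same lean, with a median of 0.44 and 8 higher of 44. The higher ones were NF-YA3 at 2.1, SPL9 at 1.93, SPL10 at 1.77, TIR1 at 1.21, NF-YA8 at 1.16, TOE3 at 1.09 and GRF1 at 1.02. TIR1 (AT3G62980), an auxin receptor and target of miR393, was the deepest of them with 711 reads in the MTA-GFP IP and 86 in the MTA-GFP input. CSD2, a copper and zinc superoxide dismutase, and ATHB8, a vascular transcription factor, were lower at -1.35 and -1.08.

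Factors of splicing and of nuclear RNA surveillance gave no call. All 10 surveillance genes lay between -0.51 and 0.46. The 18 SR and SR-like splicing factors had a median of -0.44, with 16 below 0 and 9 intervals below 0. RS40 (AT4G25500) had 654 reads in the MTA-GFP IP and 330 in the MTA-GFP input (-0.85, -1.04 to -0.65), and RS2Z33 had 248 and 137 (-0.98, -1.28 to -0.66). RS40 passed 2-fold in deposited TPM, at -1.07, and RS2Z33 with a minimum of 10 reads, at -1.01.

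Nucleolar genes of ribosome assembly were on the low side. Their median was -0.86, and of 7, 3 were lower (42.9%, against 7.43% of all protein-coding loci) and 0 higher. NUC1, a nucleolin, was at -1.42 with 820 reads in the MTA-GFP IP and 615 in the MTA-GFP input. NOP56 was at -1.63, and CBF5, the pseudouridine synthase of box H/ACA particles, at -1.33. In the control pair the median of the 7 was -1.30 and 4 were lower, NUC1 at -1.62 and NOP56 at -2.79 among them. Cytosolic ribosomal protein genes had no call among 18 and a median of -0.09.

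Photosynthesis messages had ratios mostly below 0. Of 39 genes of light harvesting and the photosystems, 12 were lower (30.8%, against 7.43% of all protein-coding loci) and 0 higher. The median was -0.73, and 31 intervals lay below 0. LHCA1 (AT3G54890), an antenna protein of photosystem I, had 7983 reads in the MTA-GFP IP and 6343 in the MTA-GFP input (-1.50, -1.55 to -1.45). PSAH2, a photosystem I subunit, had 710 and 624 reads (-1.65, -1.80 to -1.49). The LHCB1 genes were an exception: pooled over 5 near-identical copies, they had 98013 and 25619 reads and a ratio of 0.10. In the control pair the median was 1.16, and 24 of 39 were higher and 0 lower.

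Carbon fixation and photorespiration gave 8 lower (29.6%, against the same 7.43%) and 0 higher of 27, with a median of -0.61. The 4 RBCS genes pooled had 19189 reads in the MTA-GFP IP and 15302 in the MTA-GFP input, a ratio of -1.50. CAT2, a peroxisomal catalase, was at -1.31 and GLDP1, of glycine decarboxylase, at -1.06. The control median for this list was 0.48. Starch genes had no call among 12 and a median of -0.40.

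Clock genes gave 1 higher (5.0%) and 1 lower (5.0%) of 20, under the 6.99% and 7.43% of all protein-coding loci. LUX (AT3G46640), part of the evening complex, had 153 reads in the MTA-GFP IP and 14 in the MTA-GFP input (1.57, 0.83 to 2.52). GRP8 (AT4G39260), a glycine-rich RNA-binding protein, had 3754 and 2237 (-1.08, -1.16 to -1.01), and with the minimum raised to 200 reads it stood at -0.99, short of 2-fold. In the control pair GRP8 was lower too, at -1.83, and LUX was neither, at 0.84.

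Rapid stress genes gave 3 higher (21.4%) and 0 lower of 14, against 6.99% higher of all protein-coding loci. The 3 were ZAT10 at 1.3, CBF3 at 1.43 and CBF2 at 1.17. ZAT10, a zinc finger repressor, had 564 reads in the MTA-GFP IP and 64 in the MTA-GFP input. In the control pair ZAT10 and CBF2 were higher, at 1.08 and 1.38, and CBF3 had 31 reads there, too few to be called. Among chaperones, 3 of 12 were lower, BIP1, BIP2 and BIP3 of the endoplasmic reticulum, at -1.14, -1.0 and -1.53, and the 3 were lower in the control pair also.

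Jasmonate genes gave 3 lower (30.0%) of 10, against 7.43% of all protein-coding loci. LOX2, a lipoxygenase of jasmonate synthesis, had 3396 reads in the MTA-GFP IP and 2074 in the MTA-GFP input (-1.12), and the storage proteins VSP1 and VSP2 stood at -1.24 and -1.07. Salicylate genes gave 2 lower (16.7%) of 12. The pathogenesis-related genes PR5 and PR2 had 316 and 381 reads in the MTA-GFP IP against 438 and 380 in the MTA-GFP input, at -2.30 and -1.83. Both were lower in the control pair too, at -1.52 and -1.13.

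Of 5 phloem markers, 4 were lower: SUC2, the companion cell sucrose carrier, with 199 reads in the MTA-GFP IP and 259 in the MTA-GFP input (-2.21, -2.49 to -1.94), SWEET11 at -1.91, AHA3 at -1.79 and SWEET12 at -1.32. Their median was -1.79 in the MTA-GFP pair and 0.64 in the control pair. The myrosinases TGG1 and TGG2 were the 2 lower of 6 guard cell and myrosin cell markers, while the guard cell genes FAMA, KAT1, MYB60 and SLAC1 lay between -0.80 and 0.42. TGG1 was lower in the control pair as well, at -1.42, and TGG2 stood at -0.86 there. Of 3 epidermis and trichome markers, PDF1 was lower at -2.05, GL2 lay at -0.80 and ATML1 at 0.51 (0.20 to 0.84). Whether cell types contribute unequally to the capture was not tested.

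Over all lists, 305 of the 344 listed loci had enough reads, and 13 were higher and 45 lower. Beside these counts, and those of each list above, stand 6.99% higher and 7.43% lower of all protein-coding loci.

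**Figure D4:**
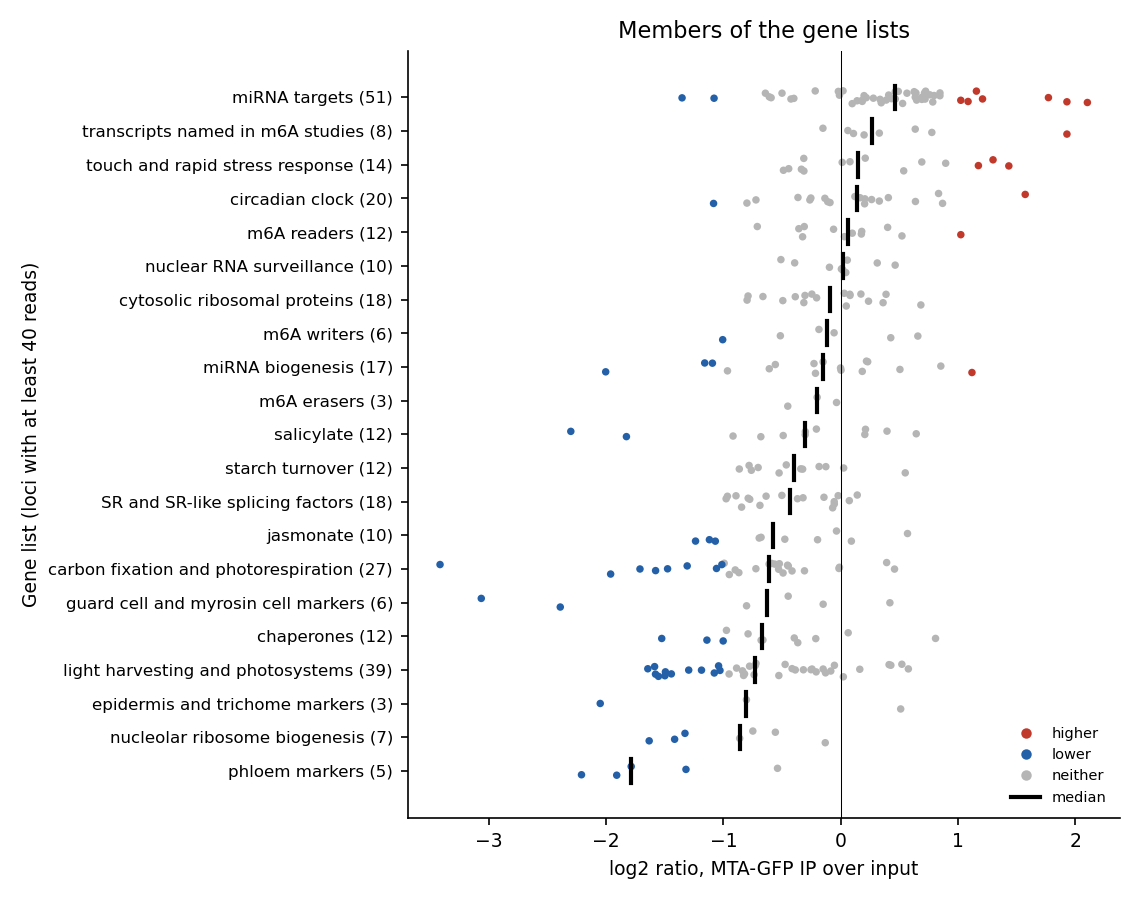
Log2 ratio of the MTA-GFP IP over its input (horizontal axis) for the members of each gene list, 1 point per locus, with the list's median as a black bar. The medians run from -1.79 for phloem markers to 0.47 for miRNA targets.

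Transcript length and level had weak relations with the ratio. Across 13560 protein-coding loci, which share libraries and are not independent, Spearman's rho was 0.05 with length and -0.27 with level. In 5 equal bins of level, from lowest to highest, the median ratio was 0.33, 0.05, -0.02, -0.11 and -0.19. With the minimum on scaled reads, rho with length was 0.17 and rho with level -0.15 over 9284 loci. The 5 bins of level then had medians of 0.03, -0.03, -0.09, -0.13 and -0.23. Under that minimum, the median was -0.30 for models up to 1000 nt and 0.10 for those over 4000 nt. The 5 chromosomes had medians between -0.03 and 0.01.

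The control pair was set beside the MTA-GFP pair as a background of the capture. Chloroplast transcripts took 49.8% of reads in the control IP and 22.1% in the control input. Protein-coding loci away from ribosomal DNA and the mitochondrial DNA copy took 2.11% and 4.25%. The 2 pairs were scaled separately, so shared calls and double ratios compare each locus with the typical transcript of each pair. Of 10822 loci measured in both pairs, 549 were higher (5.07%) and 893 lower (8.25%) in the MTA-GFP pair, and 933 were higher (8.62%) and 1386 lower (12.8%) in the control pair. The 223 loci higher in both made up 40.6% of the higher loci of the MTA-GFP pair and 23.9% of those of the control pair. The 415 lower in both made up 46.5% and 29.9%. Across 10580 protein-coding loci the ratios of the 2 pairs had a Spearman's rho of 0.46, as a description over loci.

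Dividing the MTA-GFP ratio by the control ratio gives a double ratio, called by the same rule. It was higher for 173 of the 549 higher loci (31.5%) and lower for 306 of the 893 lower loci (34.3%), against 9.7% and 10.1% of all loci measured in both pairs. These shares use the MTA-GFP ratio on both sides, so nothing is read from their excess. Of the other higher loci, 64 were lower in the double ratio, ROC2 among them at -3.90, and 312 were neither. Of the other lower loci, 115 were higher in the double ratio and 472 were neither.

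**Figure D5:**
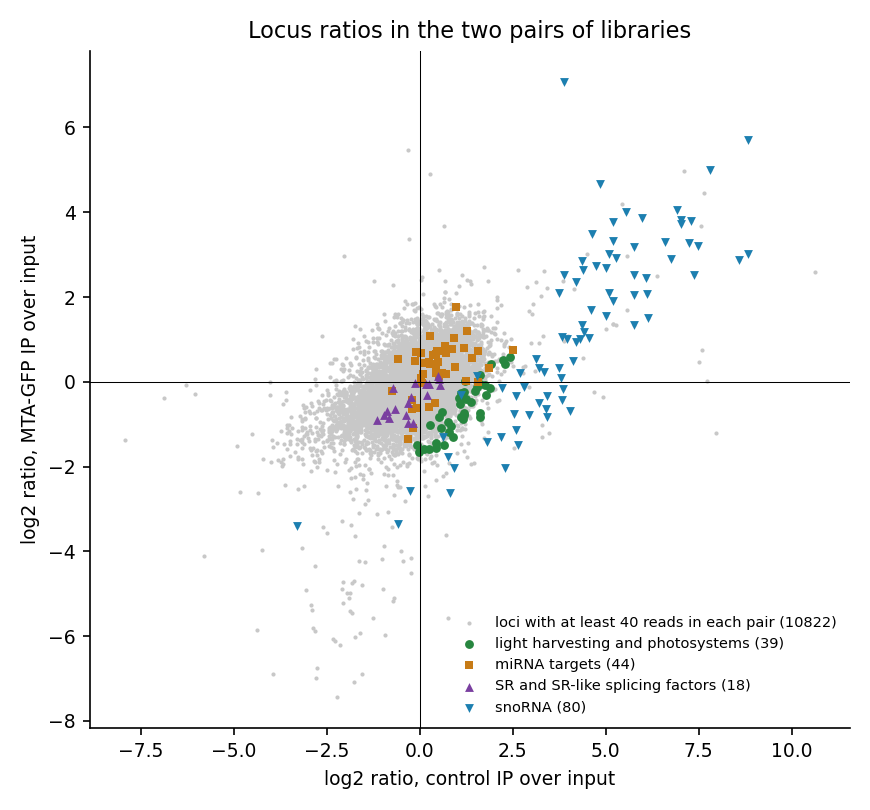
Log2 ratio in the MTA-GFP pair (vertical axis) against the log2 ratio in the control pair (horizontal axis) for 10822 loci, with 4 groups coloured. The 80 snoRNAs lie to the right, with a control-pair median of 4.25, and photosystem genes have medians of -0.73 in the MTA-GFP pair and 1.16 in the control pair.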

How the data were processed

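RNA was sequenced from 4 nuclear libraries, 1 per group, grouped by sample title. Reads were processed against TAIR10 with Trimmomatic, HISAT2, Bowtie and Salmon, per the submitters' processing notes; tool versions, tool roles and the strand setting are not given in the sources consulted, so genes that overlap or lie antisense to each other cannot be told apart. Per the file headers, the deposited tables give an estimated count, a TPM value, a length and an effective length for 55524 entries; Salmon divides reads among near-identical copies.

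These estimated counts, as deposited, were added up by locus and rounded to whole numbers. Each of the 32548 nuclear loci was found in the gene table (assembly TAIR10.1), used for names, types and neighbours. Loci with at least 40 reads over the pair were scaled by TMM (edgeR 4.0.16, R 4.3.3), 0.5 reads were added for the log2 ratio, and exact conditional (Clopper-Pearson) 95% intervals were computed in Python 3.11.15 with scipy 1.17.1. No count test was run. Double ratios have Poisson intervals on the log scale. Where the input had 0 reads, a fold was set against a floor of 3 reads in that library, which leaves out the counting error of the IP. The procedure was tested on simulated data.

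Loci named are MTA, the 15 highest and 15 lowest protein-coding loci, the 6 highest and 6 lowest others (both ranked by the interval end nearest 0), all MIR loci measured, and up to 4 members of each of 22 lists; further list members that were called are named after their values were seen. The members and lists were chosen with earlier results of these data known. The 18 families by symbol, the second ranking without the mitochondrial DNA copy and the minimum on scaled reads were chosen after seeing the data. No sequence is shown, and 12 planned and 2 added alternatives were run.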

Additional observations from a re-analysis of the deposited data

Results flagged for a closer look

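Light harvesting and photosystem genes had a median log2 ratio of -0.73 in the MTA-GFP pair and 1.16 in the control pair. Phloem markers had a median of -1.79 in the MTA-GFP pair and 0.64 in the control pair. The medians of both lists thus had opposite signs in the pairs of libraries. Each pair was scaled on its own, at 3.56 IP reads per input read for MTA-GFP and 0.50 for the control. The signs are therefore relative to the typical transcript of each pair and depend on that scaling. The difference was not tested over replicates, since each group holds 1 library, and the 2 lists were chosen with earlier results known.

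Among the 10822 loci measured in both pairs, 14 were higher in the MTA-GFP pair and lower in the control pair, and 25 were lower in the MTA-GFP pair and higher in the control pair. These calls cover counting error only. AT5G47360 had 41 reads in the MTA-GFP IP and 1 in the MTA-GFP input (2.96, with an interval of 0.97 to 8.86), and 6 and 53 reads in the control IP and input (-2.05). ATBCAT-5 had 244 and 27 reads in the MTA-GFP IP and input (1.32) and 7 and 50 in the control IP and input (-1.76). In the other direction, AT2G16586 had 14575 and 10133 reads in the MTA-GFP IP and input (-1.31), and 132035 and 27015 in the control IP and input (3.28). SEOR1, a phloem filament protein, had 44 and 47 reads in the MTA-GFP IP and input (-1.93) and 36 and 26 in the control IP and input (1.46).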

How the results depend on the processing

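No paired analysis was possible because each group holds 1 library and its replicate number comes from accession order only; for the same reason no replicate could be left out. Scaling decided the balance of calls: it moved the median of all loci to 2.11 with all reads, 1.98 with nuclear-locus reads and 0.23 with protein-coding reads, where higher loci numbered 13122, 12837 and 1820 and lower loci 58, 60 and 575. Listed loci higher then numbered 271, 259 and 23 and listed loci lower 1, 2 and 29, and loci higher in both pairs 913 and 907 with all reads and nuclear-locus reads. Of all calls, 50.6% were higher with TMM, and 99.6%, 99.5% and 76.0% under those 3 scalings, 40.1% with at least 200 reads, 62.5% at 4-fold and 31.8% with at least 40 scaled reads.

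With at least 200 reads, 218 loci were higher and 325 lower, with 4 and 27 listed loci and 106 higher in both pairs. At 4-fold these were 193 and 116, 1 and 7, and 59; both settings test or call fewer loci by construction. With at least 40 scaled reads, 388 were higher. Spearman's correlation of the ratio with transcript length was -0.012 with at least 10 reads, 0.20 with at least 200, -0.0084 with at least 1 and 0.17 with at least 40 scaled reads. Spearman's correlation with level was -0.16 with at least 1 read, -0.22 with 2 reads added and -0.15 with at least 40 scaled reads. MIR159b and MIR162a changed sign in deposited TPM, at 1.88 and -2.24; the cause was not tested. Of the checks on named loci, 1813 kept direction and call, 4 lost and 4 gained a call. Of list medians taken relative to all loci, 260 moved by less than the criterion and 10 by more. Depth limits the higher calls, which had a median of 8 input reads.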

Other observations

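Aquaporins, the channels that carry water across plasma membrane and tonoplast, had ratios below 0. All 15 measured members had a ratio below 0. Of these, 9 were lower (60.0%) and 0 higher, against 7.43% and 6.99% of all protein-coding loci. The median was -1.27, against 0.41 in the control pair, where 1 of 13 was higher. GAMMA-TIP (AT2G36830), a tonoplast channel, had 220 reads in the MTA-GFP IP and 348 in the MTA-GFP input (-2.49, interval -2.74 to -2.25). TIP2 (AT3G26520) had 1624 and 1505 reads (-1.72, -1.82 to -1.62), and the plasma membrane channel PIP2A (AT3G53420) had 723 and 491 (-1.27, -1.44 to -1.10). Families were grouped by gene symbol after values had been seen, so their counts are descriptions.

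Counts in other families are read against 6.99% higher and 7.43% lower of all protein-coding loci. Receptor-like proteins gave 6 higher (15.8%) and 1 lower of 38, and with the minimum on scaled reads 3 of 23 were higher and the median was 0.0078 in place of 0.21. RLP36 had 150 reads in the MTA-GFP IP and 10 in the MTA-GFP input (2.01, 1.16 to 3.17), and 12 of 29 members were higher in the control pair. Xyloglucan endotransglucosylases, which remodel the cell wall, gave 1 higher and 3 lower (23.1%) of 13. ABC transporters gave 9.84% higher and 1.64% lower of 61, and cytochromes P450 gave 1.22% higher and 6.1% lower of 82. SAUR auxin-response genes gave 4 higher and 1 lower of 12. The 4 had 2 to 6 input reads each, and with the minimum on scaled reads 0 of 3 were higher.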
